A study of Zea mays with 3 samples.

Results

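Gibberellin synthesis and its DELLA repressors were examined in maize roots through 6 genes, chosen as a list of gene identifiers. The rule used no measured value, but the list was chosen with earlier results of these data known. Every transcript on the array whose identifier began with a listed gene was taken, which gave 11 transcripts with 29 probes, out of 59756 transcripts of 39219 genes on the whole array. The list names its genes an1, d1, d3, d5, d8 and d9. All samples were roots of cultivar PR33T56 (a hybrid by the sample labels, an inbred line by the methods), from seedlings that were 5 days old when they received 0.5 mM urea as the nitrogen source with 0.897 μM NBPT for 8 h (Urea+NBPT). NBPT is an inhibitor of urease, the enzyme that splits urea. The 3 replicates came from separate experiments, each a pool of the roots of 6 plants, and the number of arrays limits the precision. Arrays of roots in urea alone were not analysed here, so a level says nothing of what NBPT did. RNA was labelled with Cy3 and hybridized to a NimbleGen array, and 1 intensity per probe was deposited.

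Gibberellins are diterpene hormones that promote the elongation of stems, leaves and roots. Their synthesis starts in the plastid, where an ent-copalyl diphosphate synthase and an ent-kaurene synthase cyclize geranylgeranyl diphosphate, passes through cytochrome P450 oxidations, and ends with soluble dioxygenases that make the active hormone (GA20-oxidase, GA3-oxidase) or inactivate it (GA2-oxidase). DELLA proteins of the GRAS family hold back growth until gibberellin, bound to its receptor GID1, leads to their degradation. In maize, mutants of the synthesis genes are dwarfs that respond to gibberellin, while dominant mutants of the DELLA genes are dwarfs that do not.

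The reference gene table (Zm-B73-REFERENCE-NAM-5.0, used here for names and gene order only) gave names to 4 of the genes. It named GRMZM2G081554 as an1 (anther ear1, an ent-copalyl diphosphate synthase), GRMZM2G036340 as Dwarf1 (d1, a GA3-oxidase), GRMZM2G144744 as D8 and GRMZM2G024973 as d9 (both DELLA genes). It gave no name to GRMZM2G093603 and GRMZM2G093526, which the list calls d3 and d5 in this order, and it assigned the name d3, with CYP88A1, to another gene, GRMZM2G093195. In that table the unnamed genes lie next to each other, and the gene that follows GRMZM2G093526 is eks1 (GRMZM2G049538), with the synonym KS. They are therefore called by their identifiers, with no role, and d3 below means GRMZM2G093195, which is not on the list.

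Levels are normalized log2 values. The array holds 1663 random control probes, and their 95th percentile served in each array as the control threshold, at 8.24, 8.30 and 8.24 in replicates 1, 2 and 3. Transcripts higher than the control threshold in all 3 arrays are called detected. By this rule 7 of the 11 transcripts were detected, where 62.6% of all transcripts of the array were. At least 1 transcript was detected of an1, d1, d8, d9 and GRMZM2G093603, and none of GRMZM2G093526. The excess over the control threshold was also tested with limma (one-sided, Benjamini-Hochberg over all transcripts), which called the same 7 transcripts at an adjusted p of 0.05 and 61.3% of all transcripts. This test compares a transcript with control probes of other sequence, and not conditions with each other. Levels of different transcripts were not compared, because their probes bind with different strength.

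**Figure D1:**
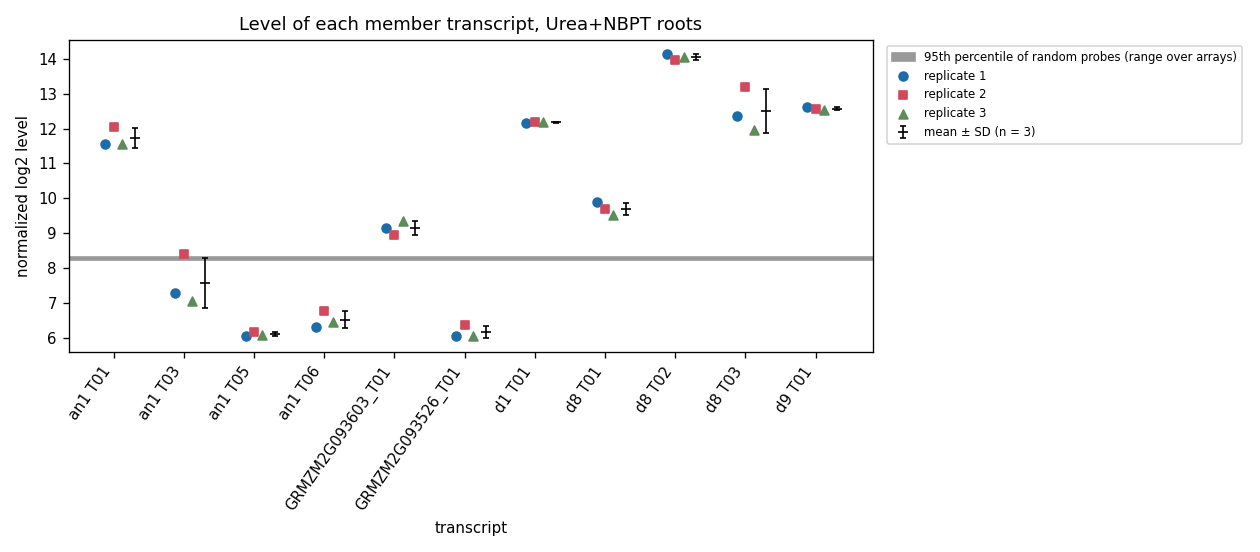
Normalized log2 level (vertical axis) of the 11 transcripts (horizontal axis) in each of the 3 Urea+NBPT replicates, with the mean ± SD, and the control threshold as a grey band that spans 8.24 to 8.30. The transcripts an1 T01, d1 T01, d9 T01, GRMZM2G093603_T01 and those of d8 lie above the band in every replicate, and an1 T03 crosses it in replicate 2 alone.

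The synthesis gene an1 makes ent-copalyl diphosphate, the precursor of ent-kaurene, and was represented by 4 transcripts, of which 1 was detected. GRMZM2G081554_T01 had levels of 11.55, 12.05 and 11.56 in replicates 1, 2 and 3. Replicate 2 was the high one, by 0.50 over the mean of the others, and all replicates lay far above the control probes. The mean was 11.72 ± 0.29 (SD, n = 3) and the excess over the control threshold 3.46 ± 0.12 (SE, limma, adjusted p = 4.61e-06). Its probes, at positions 1331 and 2058 of the transcript, both exceeded all 1663 random probes in every array.

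The other an1 transcripts lay near or below the control threshold. GRMZM2G081554_T03 had 7.28, 8.39 and 7.05 in replicates 1, 2 and 3, with a mean of 7.57 ± 0.72 (SD, n = 3). It passed the control threshold in replicate 2 only, where it lay 1.23 above the mean of the others. This SD was the largest among the members and larger than that of 97.9% of all transcripts. The 3 probes of this transcript did not behave alike against the control probes. The probe at position 1 had deposited intensities of 549, 974 and 415 and was above the 95th percentile of the random probes in all arrays. The middle probe had 119, 319 and 139 and passed it in replicate 2, and the probe at position 250 had 91.5, 268 and 74.9 and passed it in none. All 3 were brightest in replicate 2. GRMZM2G081554_T05 had 6.06, 6.16 and 6.07 and GRMZM2G081554_T06 had 6.30, 6.78 and 6.46, and neither passed the control threshold in any array. Probes of GRMZM2G081554_T05 had intensities from 37.1 to 69.7, against medians of the random probes of 73.3, 69.6 and 70.4 in the replicates. When the 11 probes of an1 were combined into a single level for the gene, that level was 6.65, 6.97 and 6.66 and was below the control threshold in all arrays, so that the call for an1 rests on the transcript T01.

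The adjacent genes GRMZM2G093603 and GRMZM2G093526 differed in detection. GRMZM2G093603_T01 had levels of 9.14, 8.95 and 9.34 in replicates 1, 2 and 3, above the control threshold in each, and replicate 2 was the lowest. The mean was 9.14 ± 0.19 (SD, n = 3) and the excess 0.88 ± 0.12 (SE, limma, adjusted p = 0.000802). It was the detected member closest to the threshold, and lay below the 99th percentile of the random probes by 0.11. The probe at position 2385 had intensities of 936, 713 and 1075 and the probe at position 2893 had 548, 478 and 674, while the probe at position 1872 had 177, 249 and 163 and did not pass the 95th percentile of the random probes in any array. GRMZM2G093526_T01 had 6.06, 6.35 and 6.06, with an excess of -2.10 ± 0.09 (SE) that depends in size on the background correction, as given below. Its brightest probe, at position 1054, had intensities of 198, 292 and 121 and passed the 95th percentile of the random probes in none of the arrays.

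For comparison, d3 and eks1, which were looked up after the values had been seen, had detected transcripts. The gene d3 codes for a cytochrome P450 that oxidizes ent-kaurenoic acid. GRMZM2G093195_T01 had levels of 9.06, 8.50 and 9.29 in replicates 1, 2 and 3 and an excess of 0.69 ± 0.18 (SE, limma, adjusted p = 0.0128). Replicate 2 was the lowest. GRMZM2G049538_T01 of eks1 had 10.11, 9.74 and 10.62 and was detected, while GRMZM2G049538_T02 had 6.85, 7.27 and 6.32 and was not. GRMZM2G016922_T01 of the kaurene synthase-like gene KSL4 had 8.51, 8.23 and 8.30 and passed the control threshold in 2 arrays.

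The GA3-oxidase gene d1, which makes the active hormone in the last step, was detected with the smallest spread among the members. GRMZM2G036340_T01 had levels of 12.15, 12.20 and 12.19 in replicates 1, 2 and 3. No replicate stood apart at the level of the transcript, and the mean was 12.18 ± 0.02 (SD, n = 3). Its excess over the control threshold was 3.92 ± 0.08 (SE, limma, adjusted p = 1.01e-06). The probe at position 824 had intensities of 4183, 5005 and 4989.7, that at 1463 had 2849, 3075 and 2926, and that at 1730 had 4620.4, 4177 and 4659. Replicate 2 was the brightest in the probes at 824 and 1463 and the dimmest in the probe at 1730.

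Both DELLA genes were detected through every transcript on the array. For d8, GRMZM2G144744_T02 had levels of 14.13, 13.97 and 14.05 in replicates 1, 2 and 3, with a mean of 14.05 ± 0.08 (SD, n = 3) and an excess of 5.79 ± 0.09 (SE, limma, adjusted p = 9.22e-07). Its probes, at positions 933 and 1967, had intensities of 12767, 13443 and 11672 and of 25190.4, 19212 and 24659, and each exceeded all 1663 random probes in every array. GRMZM2G144744_T01 had 9.88, 9.68 and 9.53, with a mean of 9.70 ± 0.18 (SD, n = 3) and an excess of 1.44 ± 0.10 (SE, limma, adjusted p = 7.06e-05). In these transcripts replicate 1 was the highest and the replicates lay close together.

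The third d8 transcript differed between replicates far more. GRMZM2G144744_T03 had levels of 12.35, 13.20 and 11.95 in replicates 1, 2 and 3, with a mean of 12.50 ± 0.64 (SD, n = 3) and an excess of 4.24 ± 0.24 (SE, limma, adjusted p = 2.71e-05). The value of replicate 2 exceeded the mean of replicates 1 and 3 by 1.05, while in T02 of the same gene it differed from that mean by -0.12 and in T01 by -0.02. Both probes took part, with intensities of 3037, 6742 and 2114 at position 96 and of 8951, 13103 and 7329.9 at position 395. Without replicate 2 the excess of this transcript was 3.91, and it was detected with each replicate left out. It is among the transcripts that the study listed as changed on these samples.

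The paralogue d9 had 1 transcript. GRMZM2G024973_T01 had levels of 12.63, 12.55 and 12.53 in replicates 1, 2 and 3, with a mean of 12.57 ± 0.05 (SD, n = 3) and an excess of 4.31 ± 0.08 (SE, limma, adjusted p = 9.54e-07). No replicate stood apart at the level of the transcript. Its probe at position 973 had intensities of 3589.6, 5002 and 2887 and was brightest in replicate 2, whereas the probe at position 2161 had 6306, 5007 and 5996 and was dimmest there. Probe sequences were not used here, so how far probes of d8 and d9 also bind RNA of the other gene was not tested.

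**Figure D2:**
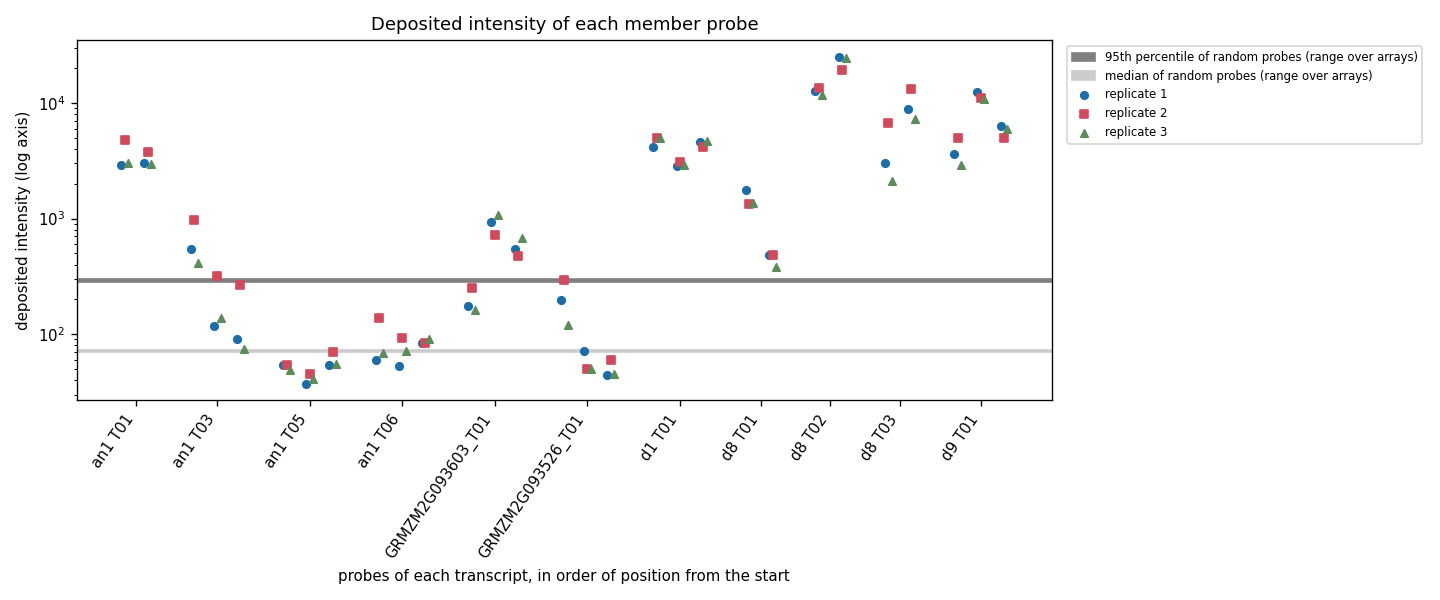
Deposited intensity (vertical log axis) of the 29 probes of the listed genes in each replicate, grouped by transcript and ordered by position from the start (horizontal axis), with the range over arrays of the median (light grey) and of the 95th percentile (dark grey) of the random probes. Of the probes 17 lie above that percentile in all arrays and 11 in none, and the spread among probes of 1 transcript often exceeds that among replicates.

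At the level of single probes, 17 of 29 passed the same percentile of the random probes in all 3 arrays on the deposited intensities, where 57.5% of all transcript probes were. A further 11 were above it in no array, and 1, the middle probe of GRMZM2G081554_T03, in 1 array.

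The median SD of the members over the replicates was 0.18 (log2, n = 3), beside 0.17 over all transcripts. With the first probe of each member alone it was 0.39, for which no value over all transcripts is given here. Replicate 2 was the highest of the arrays in 7 of the 11 transcripts, where it was in 32.9% of all transcripts. All 4 transcripts of an1 are among these 7 and share a gene, and in d1 replicate 2 differed from the mean of the others by 0.02. Among the 7, an1 T03, T05 and T06 and GRMZM2G093526_T01 were not detected. A lead of replicate 2 of more than 1 over the mean of the other arrays was seen in 2 members, GRMZM2G081554_T03 and GRMZM2G144744_T03, and in 2.26% of all transcripts. Replicate 1 did so in 0 members and 0.228% of all transcripts, and replicate 3 in 0 members and 0.452%. The replicates ranged over more than 1 in the same 2 members and in 5.02% of all transcripts. The difference of 1 was set with an earlier description of these arrays known, and the members are too few for their share to be read against the others.

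**Figure D3:**
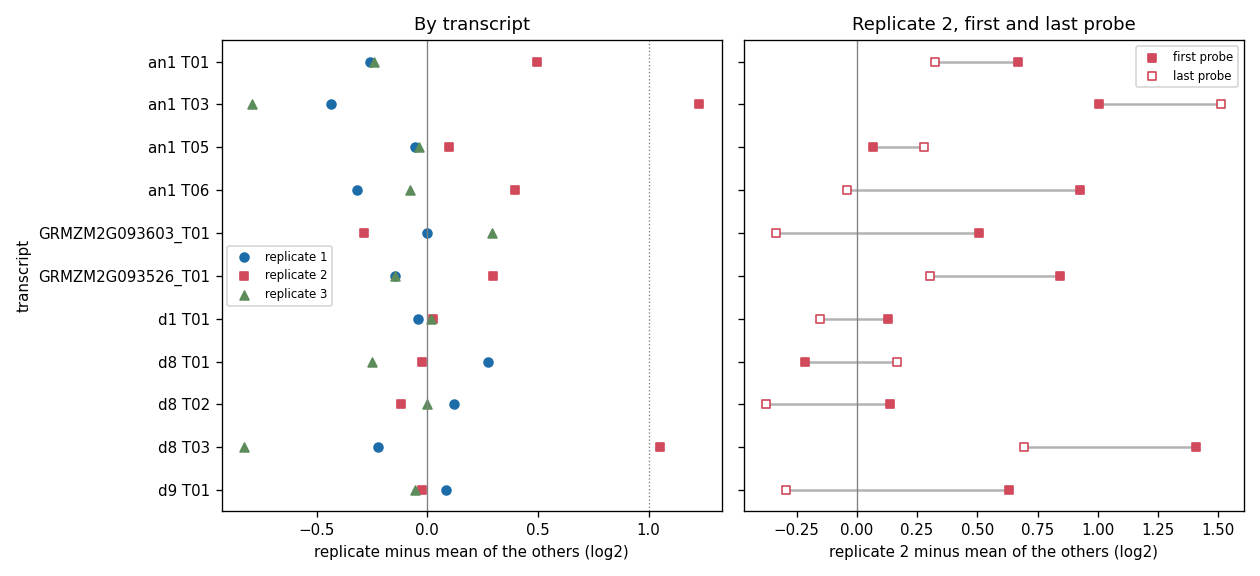
Left, the difference of each replicate from the mean of the others (log2, horizontal axis) for the 11 transcripts (vertical axis), with a dotted line at 1. Right, the same difference for replicate 2 at the first (filled) and last (open) probe of each transcript. Replicate 2 passes the dotted line in an1 T03 and d8 T03, and its difference is higher at the first than at the last probe in 8 of the 11.

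The differences of replicate 2 at the first and last probe of each transcript were compared after the values had been examined. In 8 of the 11 transcripts the difference of replicate 2 from the mean of the others was higher at the first probe than at the last, and it was so in 60.0% of 59750 transcripts with at least 2 probe positions, so that nothing is read from the members' share. The median of the difference between the first and last probe was 0.51 in the members and 0.12 over all transcripts for replicate 2, against -0.18 and -0.08 for replicate 1 and -0.33 and -0.05 for replicate 3. In d9 the difference of replicate 2 went from 0.63 at position 973 to -0.30 at position 2161, and in GRMZM2G093603_T01 from 0.51 at position 1872 to -0.34 at position 2893. In GRMZM2G144744_T03 it was 1.41 at position 96 and 0.69 at position 395. The other 3 transcripts ran the other way. They were an1 T03, with its highest difference, 1.51, at position 250, an1 T05, with 0.07 at position 19 and 0.28 at position 163, and d8 T01, with -0.22 at position 2710 and 0.17 at position 2993. Whether place in the transcript had a part in the high values of replicate 2 was not tested. A local effect of the array surface was not tested either, and only the values around the spots are given. For the 2 probes of GRMZM2G144744_T03, the median difference of replicate 2 over the probes within 15 rows and columns was 0.24 and -0.17, and for the 3 probes of GRMZM2G081554_T03 it was 0.01, -0.05 and 0.19.

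Of other genes of the pathway, 7 could be listed, through names in the reference gene table or through the annotation of the study. Of their 10 transcripts 1 was detected, where 62.6% of all transcripts of the array were. Of the other listed transcripts, 5 passed the control threshold in no array and 4 in some. The genes d3, eks1 and KSL4, which were looked up later, are not among the 7, and 2 of their 4 transcripts were detected. GRMZM2G021051, GRMZM2G153359, GRMZM2G164090 and GRMZM2G342217 are on the list through the annotation of transcripts that the study listed as changed on these samples. GRMZM2G044358 was listed there as well and also has a name in the reference gene table, so the count of the list is no independent evidence. The detected transcript of the 7 genes was GRMZM2G044358_T03 of ga3ox2, another GA3-oxidase gene, to which the reference gene table also gives the name ga3ox1. The transcript had levels of 9.36, 10.46 and 9.89 in replicates 1, 2 and 3 and an excess of 1.64 ± 0.21 (SE, limma, adjusted p = 0.000741). Its replicates ranged over 1.10, with replicate 2 the highest. Its probes start 3 positions apart, at 507 and 510, and only the probe at 507 carried this range, with intensities of 398, 1675 and 877 against 1022, 1151 and 995 at 510. The other ga3ox2 transcripts, T01 and T02, were among those farthest below the control threshold, with excesses of -1.39 and -1.18.

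A second ent-copalyl diphosphate synthase gene, an2, known from the defence of maize against fungi, was high in 1 replicate. GRMZM2G044481_T01 had levels of 6.68, 6.94 and 8.80 in replicates 1, 2 and 3, and replicate 3 alone passed the control threshold, and lay 1.99 over the mean of replicates 1 and 2. All 3 probes showed it, with intensities of 124, 153 and 298 at position 1422, of 106, 60.6 and 428 at position 1953 and of 57.6, 106 and 590.2 at position 2349. The paralogous member an1 did not share this, since its transcripts were highest in replicate 2. The median difference of replicate 3 over nearby spots was -0.10, 0.23 and 0.09 for these probes. The gene CPS1 (GRMZM2G156565) had 6.95 ± 0.14 (SD, n = 3) for T01 and 7.39 ± 0.17 (SD, n = 3) for T02 and was not detected.

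The genes that were listed through the annotation of the study alone had no detected transcript. GRMZM2G021051_T01, described by a GA20-oxidase, had 8.22, 7.79 and 8.29 in replicates 1, 2 and 3 and passed the control threshold in replicate 3 only. GRMZM2G153359_T01, described by a GA2-oxidase, had 8.07, 7.73 and 8.28, with an excess of -0.23 ± 0.14 (SE), and passed it in replicate 3 only. The GASA transcript GRMZM2G164090_T01, of a family of gibberellin-regulated peptides, had 8.21, 7.86 and 8.26 and also passed it in replicate 3 only. In all 3 replicate 2 was the lowest, and the excesses of GRMZM2G021051_T01 and GRMZM2G164090_T01 were -0.16 ± 0.14 and -0.15 ± 0.12 (SE). GRMZM2G342217_T01, described as similar to the DELLA gene RGL1 of Arabidopsis, had 7.83, 7.35 and 7.63 and passed it in none.

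**Figure D4:**
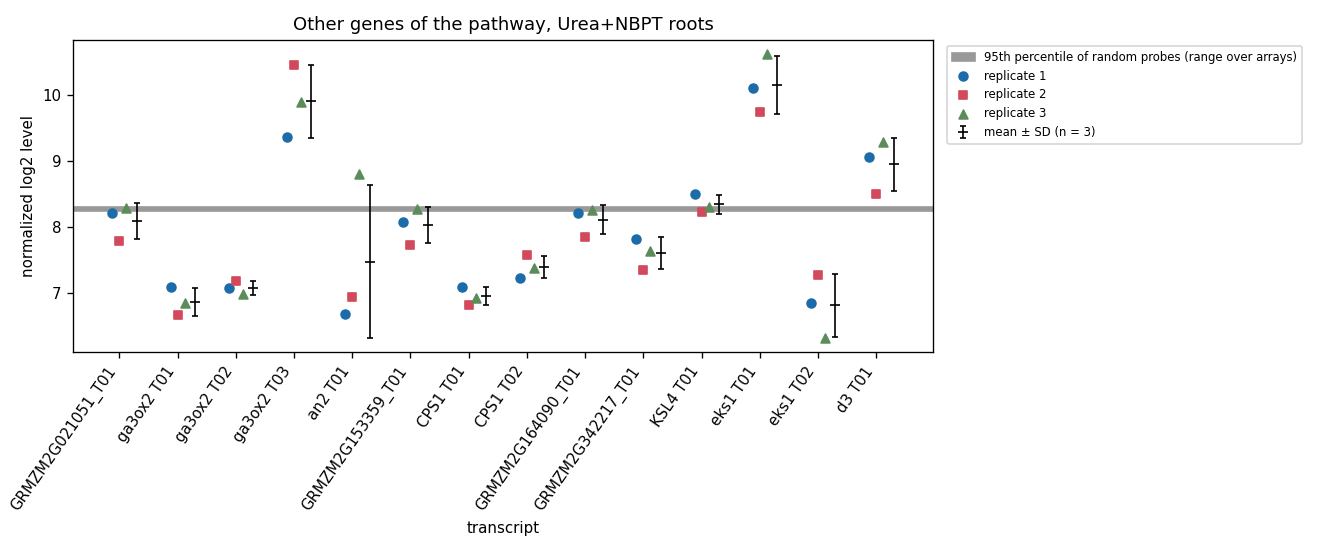
Normalized log2 level (vertical axis) of transcripts of other pathway genes, d3, eks1 and KSL4 included (horizontal axis), in each Urea+NBPT replicate. The mean ± SD and the control threshold, as a grey band, are shown. The transcripts ga3ox2 T03, d3 T01 and eks1 T01 lie above the band in every replicate. In replicate 3 only, an2 T01, GRMZM2G021051_T01, GRMZM2G153359_T01 and GRMZM2G164090_T01 pass the control threshold of that replicate.

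Of root formation and root hair genes, looked up for the labelled tissue, rtcs1 and rth3 were found by name, and all 4 of their transcripts were detected. Of a list of green leaf genes, 7 of 11 transcripts were also detected, a share near the 62.6% of all transcripts. They included T01, T02 and T03 of pyruvate, phosphate dikinase (Ppdk1), with means of 13.85, 13.71 and 14.53. In these replicate 1 was the highest, by 1.09, 1.05 and 0.58 over the mean of the others. Also detected were 2 of 3 transcripts of the chlorophyll binding protein lhcb3, with means of 10.86 and 9.43. GRMZM2G083841_T01 (pep1) with 11.07 and me3 with 8.76 were detected too. Both transcripts of the Rubisco small subunit ssu1 had means of 7.36 and 6.57 and were not detected. The remaining lhcb3 transcript, with 7.29, and GRMZM5G899080_T01, of another gene named Pep1, with 6.93, were not detected either. Since root and leaf genes were both detected, these calls do not tell root from leaf. Correlations between arrays over all transcripts lay between 0.978 and 0.990, and the transcripts of an array are not independent of each other.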

How the data were processed

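Levels were measured in 3 arrays of Urea+NBPT roots. The authors extracted intensities with NimbleScan, and the deposited intensities appear already quantile normalized, since sorted values differed by at most 0.183% between arrays. The sample labels name RMA. The deposited value table differed from the array files in 0 probes. With R 4.3.3 and limma 3.58.1, the steps were normexp background correction (offset 50), quantile normalization, log2 and median polish of the probes of each transcript. The excess over the control threshold, the 95th percentile of random probes, was fitted with an intercept only. All arrays formed 1 group, so conditions were not compared, and no pattern over conditions could be used to look for similar genes. Replicates came from separate experiments. All transcripts of the members were named. Of other pathway transcripts, those with the 3 largest and 3 smallest excesses and those ranging over more than 1 were to be named. The members and lists were chosen with earlier results of these data known. Steps were tested on simulated data. Alternatives were other thresholds, backgrounds, scalings and summaries, removal of a surface gradient, and leaving out replicates. The first or last probe alone was added after seeing the data. No sequences are shown, because none was given with the files or reference used here.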

Additional observations from a re-analysis of the deposited data

How the results depend on the processing

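The 7 detected transcripts stayed at 7 under every alternative to background, scaling, summary, surface and arrays, and when detection in 2 of the arrays was enough, and the limma count did likewise where it was run. When the control threshold was moved to the 99th percentile both counts were 6, because the excess of GRMZM2G093603_T01 turned to -0.11, and 14 probes passed in place of 17. With 1 level per gene over all its probes, 4 genes were detected in place of 5, since an1 fell below the threshold. With the first probe of each transcript only, the excess of GRMZM2G093603_T01 was -0.55 and that of GRMZM2G081554_T03 was 1.02, which kept the count of detected transcripts at 7 with different members. With the last probe only, replicate 2 lay more than 1 above the others in 1 member in place of 2, and GRMZM2G144744_T03 was the one lost. The median SD of the members, 0.18, was 0.39 with the first probe only and 0.19 with the last probe only, and 0.21, 0.14 and 0.14 without replicate 1, 2 or 3. The excesses kept their sign in 129 of the values computed under alternatives and turned in 3. Mean levels of the members moved by less than their replicate SD in 64 of the values under alternatives, and by at least that SD in 13. The level of d1, whose SD was the smallest, was 11.96 with the mean of the probes in place of median polish, against 12.18.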
